A study of Arabidopsis thaliana with 6 samples.

Results

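In 3-week-old Arabidopsis thaliana leaves, 87 of 32947 genes had less mRNA in each of 4 mutant libraries than in both wild-type libraries. They were chosen on log2(RPKM + 1), where RPKM is reads per kilobase of gene, scaled to each library's read total. In every mutant a member lies below each wild-type (WT) library by at least 1.5-fold in RPKM + 1. These 87 genes are 0.264% of all genes, and 12 genes (0.0364%) lay as far above both WT libraries in all 4 mutants. The higher count rests on both WT libraries: against WT replicate 1 alone 177 genes were lower and 144 higher, and against WT replicate 2 alone 263 were lower and 55 higher. The choice used every mutant and both WT libraries, so the distances from WT given here describe the members and test nothing. These are whole-leaf RNA samples, in which fewer cells of a type and less RNA per cell cannot be told apart. AT5G49448 and the transcription factor gene bZIP1 have the same span and reads, so the 87 genes hold 86 distinct sets of reads.

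All plants were of the ecotype Columbia-0 and grew in constant light. WT gave 2 libraries, and the mutants gave 1 each: nrpe1-11, idn2-1, the idnl1-1 idnl2-1 double mutant, and the triple mutant that joins idn2-1 to both idnl alleles. The labels do not say how many plants were pooled or whether the WT libraries came from separate plants, so the spread between them may be technical. NRPE1 encodes the catalytic subunit of the plant-specific polymerase Pol V. IDN2 binds RNA, and IDNL1 and IDNL2 are its close relatives. All belong to RNA-directed DNA methylation, in which small RNAs guide methylation to transposons and some genes.

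Plants short of sugar switch on genes that release energy from stored carbon and break down amino acids, while sugar supply switches them off. The SnRK1 kinase and group S1 bZIP factors drive much of this response, and darkness or a long night calls it up in leaves. Class II trehalose-phosphate synthases, such as TPS8 to TPS11, are regulated together with it. A separate, fast set of genes answers touch, wounding and cold within minutes, among them ethylene response factors, WRKY factors and calmodulin-like proteins.

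Read totals recovered from the RPKM steps were 2737943 to 3078153 for 4 libraries (WT replicate 1, nrpe1, idn2, triple). The second WT library had 5975802 and the double mutant 5819494. Depth and genotype can therefore not be told apart where a shallow library meets a deep one. The 5 leaf markers, among them RBCS1A and RCA, were abundant in every library, with a summed level of 1214 to 1294 RPKM in the 4 shallower libraries and 690 and 714 RPKM in the 2 deeper ones. The summed level of 5 floral organ markers was 4.40 and 6.46 RPKM in WT and 13.3, 4.06, 2.56 and 2.52 in nrpe1, idn2, triple and double. None of the 5 was at 0 reads in any library, and the part of floral tissue in the results for nrpe1 was not tested. Of 4 root markers PLT1 had 0 reads everywhere, and the summed level ran from 52.9 RPKM in nrpe1 to 75.9 in the double mutant. IDNL1 stood at 4.86 and 6.37 RPKM in WT and at 0.187 and 0.316 in the triple and double mutants. NRPE1 (4.92 RPKM in nrpe1, 2.14 and 3.72 in WT) and IDN2 (12.4 in idn2, 18.0 and 17.1 in WT) still gave reads, so they do not check the labels of those libraries.

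**Figure D1:**
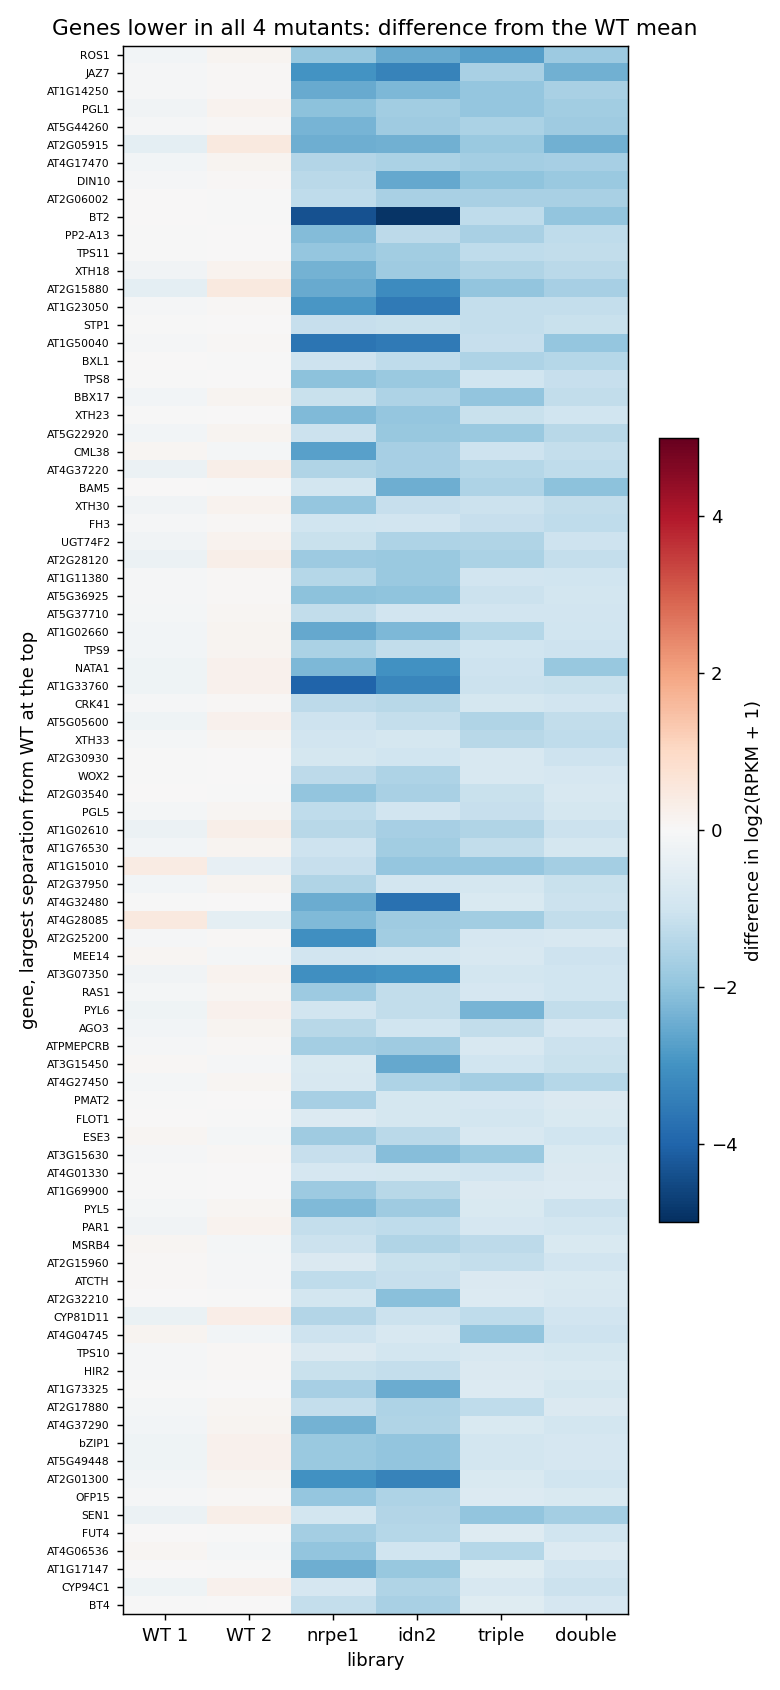
Difference of each of the 87 genes from the mean of the WT libraries in log2(RPKM + 1), by library (columns) and gene (rows, largest separation at the top). Blue is lower than WT; the nrpe1 and idn2 columns reach -4.35 and -4.92 in BT2, while the triple and double mutants reach no lower than -2.75 and -2.39.

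The members were of middle abundance in WT. Their median level was 19.0 and 20.9 RPKM in the WT libraries, against 9.75 and 12 over all genes with at least 1 RPKM in some library. It was 3.82 RPKM in nrpe1, 4.92 in idn2 and 8.76 and 8.60 in triple and double, where the medians over all those genes were 9.94, 9.65, 9.58 and 11.9. The WT libraries lay close together, with a median absolute difference of 0.16 in log2(RPKM + 1). In RPKM itself 3 members, AT2G05915, AT2G15880 and AT4G28085, differed at least 2-fold between them. WT replicate 1 was the lower WT library in 67 members and replicate 2 in 20. The median of replicate 2 minus replicate 1 was 0.14 over members. Over all genes with at least 1 RPKM in some library it was 0.15, so this shift is not particular to the members. In the same-depth comparisons, the median distance was 0.87 from WT replicate 1 to the highest of nrpe1, idn2 and the triple mutant, and 1.13 from WT replicate 2 to the double mutant.

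The shortfall was not equal in the 4 mutants. The median difference from the WT mean in log2(RPKM + 1) was -1.51, -1.62, -1.14 and -1.05 in nrpe1, idn2, triple and double, beside medians of 0.02, -0.02, -0.05 and 0.04 over all 22362 genes tested. Of the 87 members, nrpe1 was lowest in 36, idn2 in 33, triple in 14 and double in 4. In 47 members both nrpe1 and idn2 lay below both the triple and the double mutant, and in 8 members the reverse held. These counts were not made over all genes, and the rule set a ceiling on every mutant. The double mutant is also the only deep mutant library, so depth enters the counts, and nothing is read from them. The separate lists from which the members come were of unequal size: by the same threshold 1263 genes (3.83%) were below both WT libraries in nrpe1, 965 (2.93%) in idn2, 696 (2.11%) in triple and 329 (0.999%) in double. At a distance of 1 or more in all 4 mutants 18 genes remained, 0.0546% of all genes.

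ROS1 had the largest separation from WT. This gene (AT2G36490, TAIR8 chromosome 2, 15315100 to 15321351) encodes a DNA glycosylase that removes methylated cytosine, and its own expression is known to depend on methylation of its promoter. It stood at 10.9 and 13.7 RPKM in WT, 2.52, 1.32, 0.962 and 2.79 in nrpe1, idn2, triple and double, on 188 and 514 reads against 48, 23, 16 and 101. The lowest level was in the triple mutant and the highest mutant level in the double mutant. Of the 30 listed genes of DNA methylation and demethylation, ROS1 was the 1 member, beside 0.264% of all genes. Its relatives DME, DML2 and DML3 were not members: DME had 7.42 and 9.07 RPKM in WT and 6.57 to 10.2 in the mutants. AGO3, an ARGONAUTE protein outside that list, was a member at low level, with 2.51 and 3.18 RPKM in WT and 0.479, 0.937, 0.615 and 1.15 in nrpe1, idn2, the triple and the double mutant.

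JAZ7, a repressor of jasmonate signalling (AT2G34600, TAIR8 chromosome 2, 14580159 to 14580935), came next. It had 13.02 and 13.9 RPKM in WT, and 0.828, 0.442, 3.65 and 1.76 in nrpe1, idn2, the triple and the double mutant. These mutant levels rest on 1, 0, 7 and 7 reads, so the order among them is poorly resolved. Of 25 jasmonate genes listed, JAZ7 and CYP94C1, which oxidizes the active hormone, were the 2 members, beside 0.264% of all genes. CYP94C1 had 3.59 and 5.23 RPKM in WT and 0.898 to 2.04 in the mutants. Taken mutant by mutant, another 3 to 6 genes of that list were below both WT libraries. In all these were 8, 8, 5 and 5 genes in nrpe1, idn2, the triple and the double mutant, beside 3.83%, 2.93%, 2.11% and 0.999% of all genes.

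Several other members with the widest separation encode enzymes. AT1G14250, a nucleoside phosphatase family gene (TAIR8 chromosome 1, positions 4868447 to 4871483), stood at 16.5 and 17.6 RPKM in WT and 2.12, 2.82, 3.73 and 4.90 in nrpe1, idn2, the triple and the double mutant. PGL1, a 6-phosphogluconolactonase of the pentose phosphate pathway, had 11.8 and 15.3 RPKM in WT and 2.53, 3.32, 2.79 and 3.31 in the mutants in that order. The PGL1 span overlaps AT1G13690, so reads in the overlap cannot be assigned to a single gene. Its relative PGL5 was a member too, at 39.9 and 45.1 RPKM in WT and 16.8, 21.6, 18.5 and 22.9 in the mutants. For both genes the 4 mutants lay close together.

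AT5G44260 (TZF5), a tandem CCCH zinc finger gene, stood at 21.9 and 24.4 RPKM in WT and at 3.82, 6.0, 7.08 and 6.09 in nrpe1, idn2, the triple and the double mutant. ATCTH (TZF1), of the same protein family, was the most abundant member, with 136 and 124 RPKM in WT and 54.0, 58.7, 78.4 and 76.6 in the mutants. PP2-A13, of the phloem protein 2 family, had 54.3 and 56.7 RPKM in WT and 11.4, 22.1, 17.4 and 22.7 in the mutants. AT4G17470, an alpha/beta-hydrolase family gene, had 11.2 and 13.5 RPKM in WT and a narrow 3.03 to 3.82 in the mutants. That the highest mutant lay below the lower WT library in these 4 genes follows from the rule, as in all members.

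AT2G05915 and AT2G06002 ranked among the first 12 on few reads. AT2G05915, an uncharacterized protein gene, had 6 and 31 reads in WT and 0, 0, 1 and 1 in nrpe1, idn2, the triple and the double mutant. AT2G06002, a noncoding RNA gene, had 6 and 14 reads in WT and 1, 0, 0 and 1 in the mutants. Because the deposited values carry 1 added read per gene, their RPKM of 0.486 to 1.58 in the mutants lie near the level of that read, and rest on it wholly where the count is 0. In all, 5 members had under 10 reads in WT replicate 1, 10 had 0 reads in at least 1 mutant, and 54 had at least 50 reads in WT replicate 1.

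**Figure D2:**
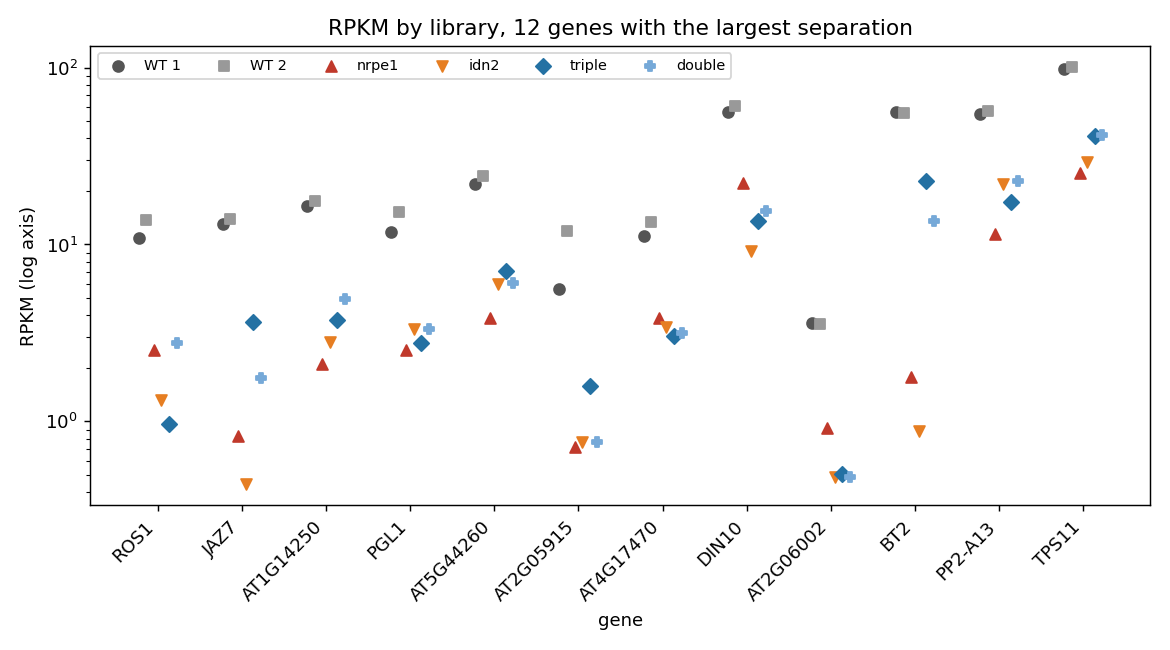
RPKM on a log axis in each of the 6 libraries for the 12 genes with the largest separation between the lower WT library and the highest mutant. Grey symbols are the WT libraries, and by the rule all mutants lie below them. BT2 spreads most among the mutants, from 0.881 RPKM in idn2 to 22.9 in the triple mutant.

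Sugar-starvation genes made up the largest listed group. Of 34 genes on that list, 15 were members, beside 0.264% of all genes; the list was drawn up with earlier results known, and AT5G22920, AT4G27450 and AT3G15630 entered it from them, so the count is no independent evidence. Taken mutant by mutant, 19, 21, 21 and 21 of the 34 lay below both WT libraries in nrpe1, idn2, the triple and the double mutant. Over all genes the shares were 3.83%, 2.93%, 2.11% and 0.999%. The list's median difference from the WT mean in log2(RPKM + 1) was -0.76, -1.10, -0.92 and -0.90, against -0.05 to 0.04 over all genes tested. Summed over the list, WT had 1293 and 1307 RPKM, and nrpe1, idn2, triple and double had 550, 459, 749 and 709.

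All 4 trehalose-phosphate synthase genes on the list were members. TPS11 stood at 98.0 and 101 RPKM in WT and at 25.2, 29.3, 41.0 and 41.6 in nrpe1, idn2, the triple and the double mutant. TPS8 had 77.1 and 78.1 RPKM in WT and 18.2, 20.7, 38.3 and 34.5 in the mutants. TPS9 had 18.3 and 22.9 RPKM in WT and 6.10, 8.18, 9.77 and 9.44. In these 3 genes nrpe1 was lowest, idn2 next, and the 2 mutants with idnl alleles highest. The order of nrpe1 and idn2 is not resolved by the reads. The ratio of nrpe1 to idn2 was 0.859 in TPS11 (exact 95% interval 0.716 to 1.03, counting error only). It was 0.878 (0.724 to 1.07) in TPS8 and 0.743 (0.528 to 1.04) in TPS9. In TPS9 the ratio of the triple mutant to idn2, 1.20 (0.881 to 1.63), was unresolved too. TPS10 was flatter, with 18.4 and 20.4 RPKM in WT and 11.4 in nrpe1, the highest of the mutants, and 9.74 in idn2, the lowest. Reads of such related genes can be split by the counting, which is not described, so single levels in the family carry that uncertainty.

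Genes of sugar transport and of sugar and polymer breakdown had less uniform patterns. STP1, a monosaccharide symporter of the plasma membrane, had 62.1 and 63.1 RPKM in WT and 27.8, 28.7, 27.0 and 28.3 in nrpe1, idn2, the triple and the double mutant, so the 4 mutants were almost level. BXL1, a beta-xylosidase, had 52.3 and 50.8 RPKM in WT and 24.8, 20.6, 17.0 and 18.4 in the mutants. DIN10, a dark-inducible gene of the raffinose synthase family, had 56.4 and 61.0 RPKM in WT and 22.3, 9.15, 13.6 and 15.4. BAM5, a beta-amylase, had 31.3 and 30.9 RPKM in WT and 15.9, 4.92, 9.94 and 6.76. For DIN10 and BAM5 the highest mutant level was in nrpe1 and the lowest in idn2.

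Regulators on the list were members too. BT2, a BTB and TAZ domain protein, had 56.3 and 55.6 RPKM in WT and 1.79, 0.881, 22.9 and 13.5 in nrpe1, idn2, the triple and the double mutant. Its relative BT4, not on the list, was the member nearest the threshold, with 52.8 and 55.2 RPKM in WT and 23.3, 16.9, 34.8 and 30.1 in the mutants. bZIP1, an S1-group factor of the low-energy response, had 30.3 and 41.9 RPKM in WT and 9.22, 8.32, 18.4 and 19.2. AT5G22920 (RZPF34), a RING zinc finger gene, had 20.3 and 24.2 RPKM in WT and 9.89, 5.28, 5.44 and 7.96.

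SEN1, a dark- and senescence-induced gene, had 4.90 and 7.98 RPKM in WT and 2.83, 1.64, 0.848 and 1.23 in nrpe1, idn2, the triple and the double mutant. AT3G15450 and AT4G27450, of the aluminum-induced protein family, had 94.6 and 87.2 and 40.9 and 46.3 RPKM in WT, and 53.1, 14.8, 44.8 and 41.8 and 24.8, 14.4, 12.9 and 15.5 in the mutants. The span of AT3G15450 overlaps AT3G15460, so some of its reads may belong to that gene. AT3G15630 had 45.1 and 49.6 RPKM in WT and 20.5, 10.03, 12.2 and 27.7 in the mutants. In SEN1 and AT4G27450 the triple mutant was lowest, and in AT3G15450 and AT3G15630 idn2 was. The mutant levels of SEN1 rest on 10, 5, 2 and 8 reads, so the order among them is poorly resolved. The read ratio of triple to idn2 was 0.890 in AT4G27450 (exact 95% interval 0.597 to 1.32) and 1.23 in AT3G15630 (0.661 to 2.31). Counting error thus leaves the lowest mutant open in those genes too.

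The 15 starvation members differed from the other 72 in which mutant was lowest. Their median difference from WT in log2(RPKM + 1) was -1.14, -1.86, -1.26 and -1.24 in nrpe1, idn2, triple and double, against -1.70, -1.59, -1.09 and -1.02 in the other 72. Only 3 of the 15 were lowest in nrpe1 and 8 were highest there among the mutants; of the other 72, 33 were lowest in nrpe1 and 8 highest. These splits are a description, and no test of the difference was made. Of the list's 19 genes outside the rule, EXL1 was far lower in nrpe1 and idn2 (3.69 and 5.76 RPKM) than in the triple and double mutants (76.6 and 49.7), against 97.0 and 95.9 in WT. ERD5, a proline dehydrogenase, had 14.6 and 17.3 RPKM in WT and 8.14 to 8.50 in idn2, the triple and the double mutant, but 28.5 in nrpe1. Other genes of the 19 stayed nearer WT. Against the WT mean in log2(RPKM + 1), GDH2 differed by 0.35, -0.22, -0.34 and -0.25 in nrpe1, idn2, triple and double. In the same order DIN3 differed by 0.09, -0.18, -0.36 and -0.12, and IVD by 0.08, 0.19, -0.21 and 0.03. ASN1, on 3 to 22 reads per library, differed by 0.53, -0.17, -0.35 and -0.22. DYL1, BGAL4 and AKINBETA1 were below WT in every mutant but missed the threshold.

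**Figure D3:**
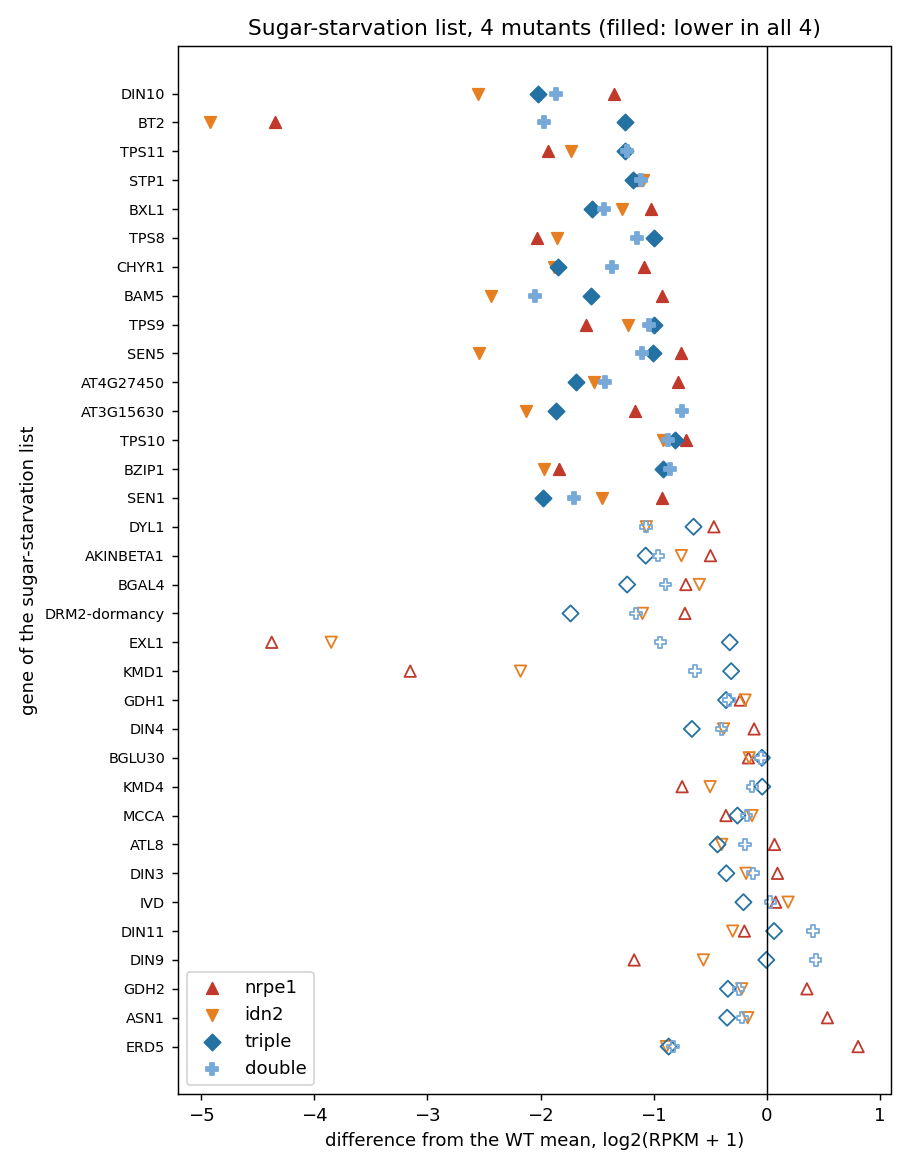
Difference from the WT mean in log2(RPKM + 1) for the 34 genes of the sugar-starvation list in the 4 mutant libraries; filled symbols mark the 15 genes lower in all 4, with CHYR1 and SEN5 for AT5G22920 and AT3G15450. By the rule members lie left of 0 in every mutant, while EXL1 and KMD1 are low in nrpe1 and idn2 and nearer WT in the other mutants.

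Promoters of the members were read from the RefSeq TAIR10.1 genome, since sequence was not used by the rule. Each window runs from 250 bases before to 50 after the RefSeq gene start, found by gene ID and not by the deposited TAIR8 positions; 84 members and 26526 protein-coding genes had one. The TATCCA element, known from sugar-starvation-responsive amylase promoters of rice, was searched on both strands as the letters TATCCA. It was in 26 of 84 member windows (31.0%) and in 16.1% of all windows. Among the 15 starvation members 9 windows held it (60.0%), and among the other 69 members 17 did (24.6%). A match is a description of letters, not of a factor's binding.

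Shown here are 5 of the 9 starvation members whose windows hold the element, to let the position and surroundings be compared. TPS11 lies at chr2:8108648-8108947 on the plus strand, TPS9 at chr1:8431929-8432228 (plus), TPS10 at chr1:22181691-22181990 (minus), BT2 at chr3:17910689-17910988 (minus) and STP1 at chr1:3776986-3777285 (plus), all in TAIR10.1. Capitals mark TATCCA, or TGGATA where it lies on the other strand.
TPS11: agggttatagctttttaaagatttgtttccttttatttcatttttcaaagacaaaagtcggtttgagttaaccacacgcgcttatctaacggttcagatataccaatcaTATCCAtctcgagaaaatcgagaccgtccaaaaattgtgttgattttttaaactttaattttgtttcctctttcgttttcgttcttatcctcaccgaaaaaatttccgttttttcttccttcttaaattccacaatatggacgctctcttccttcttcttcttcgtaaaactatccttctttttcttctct
TPS9: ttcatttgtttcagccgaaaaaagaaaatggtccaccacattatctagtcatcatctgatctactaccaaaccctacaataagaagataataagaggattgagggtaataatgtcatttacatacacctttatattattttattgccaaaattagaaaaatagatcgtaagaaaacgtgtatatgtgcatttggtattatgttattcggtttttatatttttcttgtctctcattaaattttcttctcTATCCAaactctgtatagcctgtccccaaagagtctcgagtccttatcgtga
TPS10: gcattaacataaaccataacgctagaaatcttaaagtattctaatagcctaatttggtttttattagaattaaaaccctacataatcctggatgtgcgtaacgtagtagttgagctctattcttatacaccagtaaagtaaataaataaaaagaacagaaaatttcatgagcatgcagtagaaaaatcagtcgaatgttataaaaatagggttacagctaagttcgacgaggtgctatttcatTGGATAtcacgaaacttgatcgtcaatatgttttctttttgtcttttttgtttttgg
BT2: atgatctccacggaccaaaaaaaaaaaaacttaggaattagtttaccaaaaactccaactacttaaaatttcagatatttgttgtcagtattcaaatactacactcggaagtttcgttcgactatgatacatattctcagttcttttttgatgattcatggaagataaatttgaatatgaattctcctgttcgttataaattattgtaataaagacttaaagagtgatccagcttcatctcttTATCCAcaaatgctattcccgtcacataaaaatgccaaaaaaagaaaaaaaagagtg
STP1: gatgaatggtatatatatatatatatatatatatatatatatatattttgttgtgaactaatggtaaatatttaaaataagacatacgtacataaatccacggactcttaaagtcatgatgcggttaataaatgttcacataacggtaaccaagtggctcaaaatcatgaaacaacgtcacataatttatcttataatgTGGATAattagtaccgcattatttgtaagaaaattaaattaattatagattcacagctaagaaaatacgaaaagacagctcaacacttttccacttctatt
The first base of the match lies 141 bases before the annotated start in TPS11, 51 in STP1, 7 in TPS10 and BT2 and 2 in TPS9.

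Of the other 9 motifs searched on both strands, the heat shock element (GAANNTTC) was in 22.6% of member windows and 11.5% of all, the I-box (GATAAG) in 25% and 14.6%, and the evening element of clock-regulated promoters (AAATATCT) in 13.1% and 5.73%. An I-box and a TATCCA element can share bases, on opposite strands, which happened in 2 member windows; 12 windows held both motifs. The G-box (CACGTG) was in 11.9% and 7.83%, the ACTCAT element in 16.7% and 14.7%, and the rapid stress response element (CGCGTT) in 4.76% and 3.43%. The W-box core (TTGAC), which can overlap TGACG, was in 50% and 50.5%, TGACG in 19.0% and 23.1%, and the GCC-box (GCCGCC) in 2.38% and 2.56%. TATCCA was not the only motif frequent among the 15 starvation members. Of their windows 8 held TGACG, 7 the I-box, 5 the W-box core and 3 the heat shock element. The evening element and the ACTCAT element were in 2 each, and the G-box, the GCC-box and the rapid stress response element in 0. Median GC content was 29.8% in member windows and 32.0% in all, so AT-rich motifs meet a more AT-rich sequence here.

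**Figure D4:**
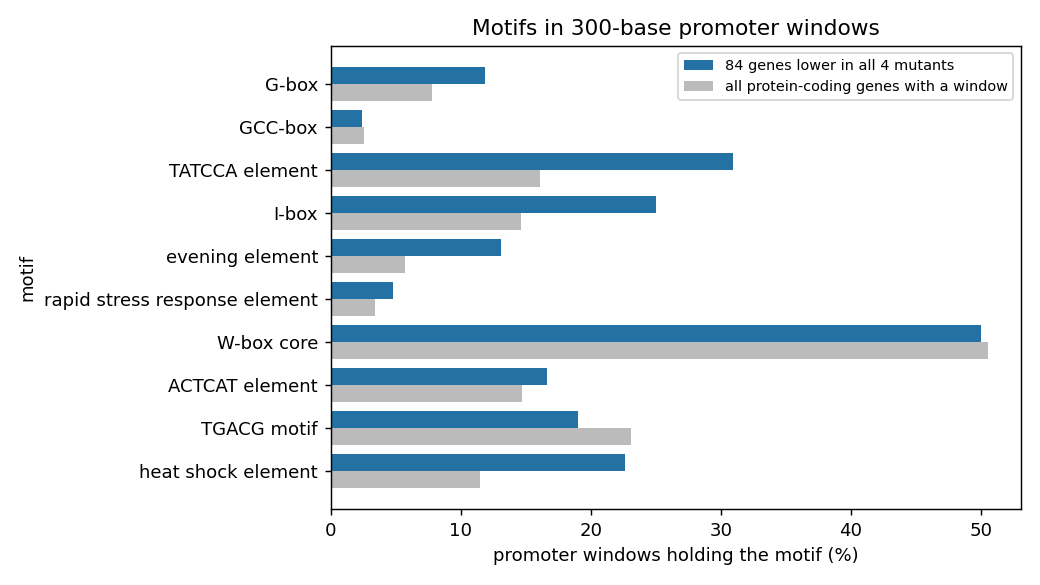
Share of promoter windows (percent, from 0) that hold each of 10 motifs on either strand, in 84 members (blue) and in 26526 protein-coding genes (grey). The TATCCA element is in 31.0% against 16.1%, the widest gap in percentage points but not as a ratio, while the W-box core stands at 50% and 50.5%.

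Some cell wall enzymes were among the members. XTH18, XTH23 and XTH33, which cut and rejoin xyloglucan, were the 3 members among 12 listed XTH genes, beside 0.264% of all genes. XTH30 and ATPMEPCRB (below), both picked after their values were seen, were members outside that list. XTH18 had 13.1 and 16.5 RPKM in WT and 2.08, 3.60, 4.57 and 5.24 in nrpe1, idn2, the triple and the double mutant. XTH23 had 26.8 and 28 RPKM in WT and 5.18, 6.35, 12 and 13.1. XTH33 was lower and had another order, with 5.31 and 6.17 RPKM in WT and 2.45, 2.61, 1.54 and 1.77. These XTH33 levels in the mutants rest on 13, 13, 7 and 18 reads, so the order is poorly resolved. The list's median difference from WT was -0.93 and -0.89 in nrpe1 and idn2 and -0.37 and -0.41 in the triple and double mutants. ATPMEPCRB, a pectin methylesterase, had 33.0 and 36.7 RPKM in WT and 9.92, 9.53, 19.8 and 15.9 in the mutants.

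PYL5 and PYL6, receptors of abscisic acid, were the 2 members among 14 listed genes of that hormone, beside 0.264% of all genes. PYL5 had 38.9 and 44.7 RPKM in WT and 8.33, 11.5, 24.0 and 19.3 in nrpe1, idn2, the triple and the double mutant. PYL6 had 6.07 and 8.71 RPKM in WT and 3.30, 2.56, 0.661 and 2.56, the triple level resting on 1 read. The 2 receptors thus had opposite orders among nrpe1 and the triple mutant. UGT74F2, which glucosylates salicylic acid, had 25.5 and 32.8 RPKM in WT and 9.17 to 13.4 in the mutants.

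The rapid stress and touch genes were low mainly in nrpe1 and idn2. Of 30 listed, 23 and 25 lay below both WT libraries in nrpe1 and idn2, but 2 and 3 in the triple and double mutants, beside 3.83%, 2.93%, 2.11% and 0.999% of all genes. CML38, a calmodulin-like gene, was the 1 member, beside 0.264% of all genes. CML38 had 20.2 and 18.0 RPKM in WT and 2.10, 5.36, 8.76 and 7.80 in nrpe1, idn2, the triple and the double mutant. The list's median difference from WT was -1.59, -1.46, 0.09 and -0.16. The lists of 14 clock genes and of 14 indole glucosinolate and camalexin genes held 0 members, a count that lists of this size would mostly give at 0.264% of all genes.

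Single genes were compared between mutants over all 22362 genes with limma, an intensity trend and Benjamini-Hochberg adjustment. The rule set a ceiling on the level in every mutant, so the members' counts and medians in these comparisons are not independent of it; the shares over all genes stand beside them and nothing is read from the contrast. The fit's 1 residual degree of freedom comes from the WT pair, and the mutants are assumed to vary like WT. On data simulated for nrpe1 against idn2 the fit also called unchanged genes, more than the adjusted p implies, so read ratios and voom on the recovered reads stand beside the calls. Between the triple mutant and idn2, which share idn2-1, 13 members were higher in the triple mutant and 0 lower, beside 0.666% and 0.148% of all genes tested. BT2 led with a difference of 3.67 (SE 0.38, adjusted p = 1.92e-18), and by reads it was 31.0-fold higher in the triple mutant (exact 95% interval 13 to 96.8, counting error only). AT4G32480, a DUF506 gene, was higher by 2.98 (SE 0.49, adjusted p = 5.48e-07), from 0.874 RPKM in idn2 to 13.8. AT2G01300 and AT1G50040 were higher by 2.60 and 2.38, AT1G23050 by 2.34, AT1G33760, an ethylene response factor family gene, by 2.22, AT3G07350 by 2.09, AT1G73325, a protease inhibitor gene, by 1.81 and AT3G15450 by 1.54. BT4, PYL5 and bZIP1, the last with AT5G49448, were higher by 1.00 to 1.05. The median difference over the 87 members was 0.41. Voom called 8 members here, 7 of them among the 13; the calls of AT1G33760, AT1G73325, BT4, PYL5, bZIP1 and AT5G49448 were lost. Those of BT4, PYL5, bZIP1 and AT5G49448 were also lost without the trend. Without the filter PYL5, bZIP1 and AT5G49448 were lost, and with quantile normalization bZIP1 and AT5G49448.

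Between nrpe1 and the triple mutant 13 members were lower in nrpe1 and 1 higher, beside 1.42% and 0.563% of all genes. BT2 differed by -3.10 (SE 0.38, adjusted p = 2.69e-13), with 12 reads in nrpe1 and 150 in the triple mutant. AT1G33760 differed by -2.97 (SE 0.57, adjusted p = 4.24e-05), with 0 reads against 20. AT1G50040, AT2G01300, AT2G25200, a DUF868 gene, and AT3G07350 differed by -2.51, -2.25, -2.23 and -2.16, and PYL5, OFP15, of the ovate family, and TPS8 by -1.42, -1.23 and -1.03. AT4G27450 was the 1 member higher in nrpe1, by 0.89 (SE 0.27, adjusted p = 0.0432). Voom gave 8 calls, all lower in nrpe1 and all among the 13; those of AT1G23050, AT1G73325, ESE3, OFP15, PYL5 and AT4G27450 were lost. Without the trend the calls of TPS8, AT1G73325, ESE3, OFP15 and AT4G27450 were lost, and without the filter those of AT1G73325 and AT4G27450.

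Between nrpe1 and idn2, 3 members were higher in nrpe1 and 1 lower, beside 0.300% and 0.228% of all genes. AT3G15450 was higher by 1.78 (SE 0.26, adjusted p = 4.21e-08), BAM5 by 1.51 (SE 0.36, adjusted p = 0.00777) and DIN10 by 1.20 (SE 0.27, adjusted p = 0.00262), all 3 on the starvation list. By reads they were 3.65-fold (2.65 to 5.12), 3.28-fold (2.33 to 4.70) and 2.46-fold (1.90 to 3.21) higher. The span of AT3G15450 overlaps AT3G15460, and how reads in the overlap were counted is not described. AT2G25200 was lower in nrpe1 by 1.32 (SE 0.29, adjusted p = 0.00289). With voom, and also without the trend, the calls of AT3G15450 and BAM5 remained, and those of DIN10 and AT2G25200 were lost.

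Between the triple and the double mutant, which share the idnl alleles but differ in depth, 1 member was lower in the triple and 0 higher, beside 0.0581% and 0% of all genes. AT3G15630 differed by -1.12 (SE 0.26, adjusted p = 0.0419), and the call was lost with voom, without the filter, without the trend and with quantile normalization. At an unadjusted p under 0.05 limma had 2 members (2.30%, beside 2.27% of all genes) and voom 5 (5.75%, beside 5.58%), with 0 voom calls. ROS1 differed by -0.95 (SE 0.69, adjusted p = 0.956) and was 0.330-fold by reads (0.182 to 0.562). STP1 differed by -0.07 (SE 0.25) on the log2(RPKM + 1) scale, and its read ratio of triple to double was 0.958 (0.815 to 1.12).

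**Figure D5:**
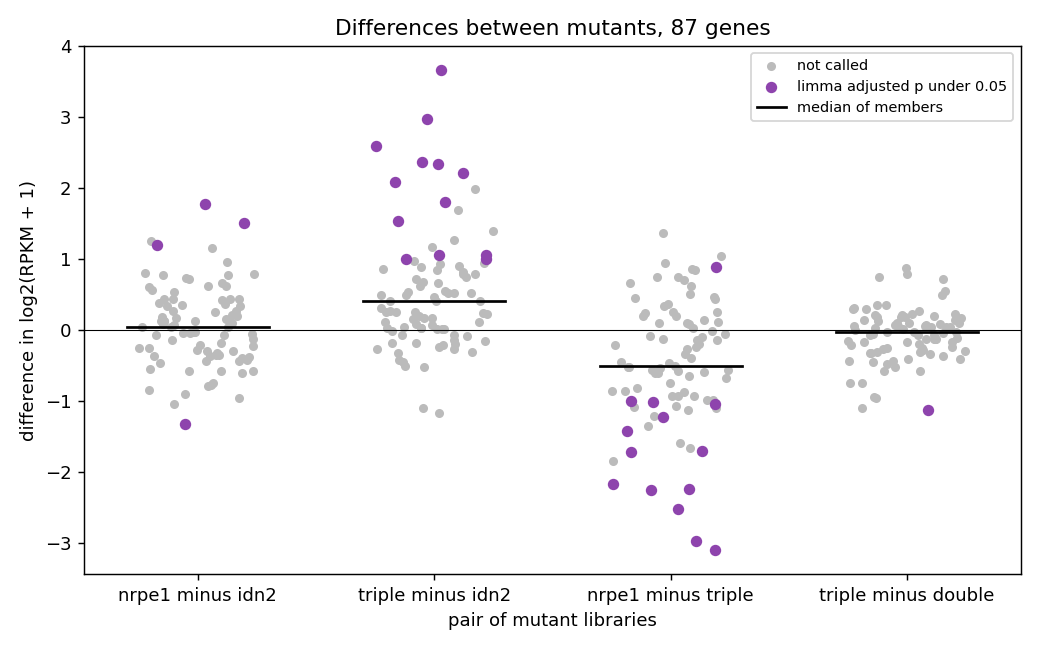
Difference in log2(RPKM + 1) (y axis) between pairs of mutant libraries (x axis) for the 87 genes; each point is a gene, purple where limma's adjusted p was under 0.05, and the bar is the median. The medians are 0.05, 0.41, -0.50 and -0.03 from left to right.

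Of the 87 members 84 are protein-coding, 1 is a noncoding RNA gene, 1 has the class pseudogene and AT5G49448 did not match the annotation. With AT5G49448, 42 had no symbol other than the locus ID, though some of them have synonyms in the annotation, such as TZF5 and RZPF34. Their median span was 1451 bases, against 1942 over all genes tested. Of 84 with exon annotation 27 (32.1%) had a single exon, against 20.5% of protein-coding genes. Chromosomes 1 to 5 held 23, 24, 8, 17 and 15 members of 8321, 5435, 6671, 5073 and 7447 genes. There were 3 pairs of adjacent members: AT2G15880 with MEE14, FH3 with BAM5, and bZIP1 with AT5G49448. A gene annotated as pseudogene, a class that includes transposable elements in RefSeq, lay within 2 kb of 6 members (6.90%) and of 7.07% of genes tested. The nearest one to ROS1 was 33.4 kb away. Only genes of this class were measured. Transposon sequence outside them was not, so these distances do not show whether a transposon lies near ROS1 or another member.

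At the threshold, the members just inside were BT4, CYP94C1 and AT1G17147, with distances of 0.59, 0.60 and 0.60. The genes just outside were AT1G52000, AT2G41640 and AT5G40180, with distances of 0.58, 0.58 and 0.58. AT1G52000 had 20.1 and 21.7 RPKM in WT and 6.63 to 13.2 in the mutants, so genes close to the threshold differ little from those left out.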

How the data were processed

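Leaf mRNA was measured by RNA-seq in 6 libraries, with groups from the genotype labels. The authors deposited RPKM per gene; per the submitters' processing notes the tool was Bowtie (no version), and gene models were TAIR8. No source used here says how multi-mapped or duplicate reads and strand were treated. In every library 100% of the RPKM, times the span, were whole multiples of the smallest step within 1e-06 steps, the lowest being 1; 1 was taken off as an added read to recover reads. Deposited positions appeared to count from 0, and 1 was added; printed TAIR8 positions can be off by 1 base. The RPKM were used as log2(RPKM + 1), which understates changes of low genes. Mutants were compared with limma 3.58.1 in R 4.3.3, over the 22362 genes that reach 1 RPKM in some library (all 87 members do), called at an adjusted p under 0.05. Prior degrees of freedom were infinite, so the trend alone sets each gene's spread. On simulated data (nrpe1 against idn2) the fit recovered changed genes but also called unchanged ones beyond what the adjusted p implies. Read ratios have exact Clopper-Pearson 95% intervals, for counting error only. Python 3.11.15 served for lists, motifs and figures.

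The members and lists were chosen with earlier results of these data known. Named genes were the first 12 by distance, listed members, limma calls (up to 10 per pair) and 3 genes on each side of the threshold; AGO3, ATCTH, ATPMEPCRB, PGL5, UGT74F2 and XTH30 were added after their values were seen. The lists were sugar starvation, jasmonate, rapid stress and touch, XTH cell wall, indole glucosinolate and camalexin, DNA methylation and demethylation, circadian clock, abscisic acid, and leaf, floral, root and seed markers; the 2 seed markers had at most 3 reads in any library. Symbols, exons and promoters come from RefSeq TAIR10.1, where 86 members matched by ID; gene models there differ from TAIR8, and 8 members had the same span in both. Alternatives were other pseudocounts, thresholds, filters, scalings, voom, fits with no trend, and leaving out libraries.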

Additional observations from a re-analysis of the deposited data

How the results depend on the processing

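The count of 87 genes, 15 of them on the starvation list, came to 140 with a pseudocount of 0.1 and to 18 (5 on the list) at a threshold of 1. Leaving out 1 library gave 107 to 263 genes, all with the 87 among them, since each omission drops a condition: 263 without WT replicate 1, 177 without WT replicate 2 and 145 without the double mutant. The higher genes were 12 in the main count, 55 without WT replicate 1 and 144 without WT replicate 2, so the share of lower genes went from 87.9% to 82.7% and 55.1%. Median-of-ratios scaling gave 88 genes and quantile normalization 89, of which 73 and 75 were among the 87. The same-depth WT library alone gave 124.

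Counts of members called between mutants moved too. Between nrpe1 and idn2 the 4 became 12 with median-of-ratios scaling, 2 with voom, 2 without the trend and 7 by a 2-fold difference. Between the triple mutant and idn2 the 13 became 24, 8 with voom and 20 by size. Between nrpe1 and the triple mutant the 14 became 29, 23 with quantile normalization, 8 with voom and 23 by size. Between the triple and double mutants the 1 became 3 with median-of-ratios scaling, 2 by size and 0 without the filter, with quantile normalization, with voom and without the trend. The causes were not tested. The median difference of triple minus double over all genes went from -0.13 to 0.03 with median-of-ratios scaling, and over members from -0.03 to 0.12. Of 32 member calls, 16 held in every setting and 17 with voom; no called difference changed sign. The TATCCA element was in 16.7% of windows of tested genes, against 16.1% of all. No paired analysis was possible because each mutant has 1 library. The comparisons between mutants had no test without a WT library, since no residual degree of freedom is left.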
